A study of Rattus norvegicus with 84 samples.

Results

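The RNA of extracellular vesicles (EVs), the membrane particles that cells release, was examined for 9 myelin and oligodendrocyte genes (Mbp, Mobp, Mog, Mag, Cnp, Cldn11, Mal, Olig1, and Olig2) in a rat model of stroke. The genes were taken by symbol from the mRNA table, and all 9 were found among its 18782 annotated genes. The rats were 21 male wild-type Sprague-Dawley rats in 7 groups of 3, and those with stroke were 8 to 12 weeks old. In 18 of them the middle cerebral artery of the right hemisphere was blocked for 90 min and then reopened (transient middle cerebral artery occlusion, tMCAO). On day 3 these rats received human neural stem cells (hNSCs group) or saline (control group) through the common carotid artery, and EVs were collected 4, 10, or 31 days poststroke. The 3 healthy rats had neither surgery nor injection. An mRNA and a miRNA library were made from brain EVs (the hemisphere with the stroke) and from plasma EVs of every rat, which gave 84 libraries. The hNSCs came from 1 line of human origin, whereas reads were aligned to the rat genome. Every library is a bulk sample, so that fewer EVs from oligodendrocytes cannot be told apart from less RNA per EV. No oligodendrocytes were sorted.

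Oligodendrocytes wrap the axons of the brain in myelin, a stack of membrane layers that insulates them, and they arise from progenitor cells that persist in the adult brain. Mbp and Mobp encode proteins of compact myelin, and Mbp mRNA is carried along the processes of the cell and translated at the myelin sheath. Mog sits on the outer surface of myelin and Mag on the membrane that faces the axon. Cnp is a cyclic nucleotide phosphodiesterase of the uncompacted cytoplasmic channels, Cldn11 forms the tight junctions between myelin layers, and Mal is a membrane proteolipid that T cells also make. Olig1 and Olig2 are transcription factors of the oligodendrocyte lineage whose genes are neighbors. The Mbp locus also gives rise to the Golli transcripts, which blood cells express, and the gene counts do not separate these from the myelin transcripts.

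The brain mRNA libraries held 13221461 to 37651652 counts, of which annotated genes took between 3.18% and 51.9%. This share was 7.11% to 20.9% in the healthy group and 29.9% to 51.9% in the 6 libraries at 31 days, above every library of the other groups. The 9 genes together had between 2674 and 34909 counts in a brain library. All 9 genes were counted in 18 of the 21 brain libraries, and in the other 3 Mog was at 0. Unless stated otherwise, levels are counts per 1000000 counts on annotated genes (CPM), scaled between libraries by the trimmed mean of M values (TMM). This scale does not correct for gene length, so levels of different genes were compared only in FPKM, which does.

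In the healthy brain, Mbp was the most abundant of the 9 mRNAs per length, with 19.9 ± 8.91 FPKM (SD, n = 3). Its lowest healthy library, at 11.2 FPKM, was above the highest library of any of the other 8 genes. Over all 21 brain libraries, Mbp ranked 13 of all annotated genes by mean FPKM. Mobp followed at 2.79 ± 2.34 FPKM and Cnp at 2.23 ± 1.35 FPKM. Below them came Mag at 1.19 ± 0.455 FPKM, Olig1 at 0.999 ± 0.666 FPKM, and Mal at 0.602 ± 0.504 FPKM. Cldn11 at 0.521 ± 0.30 FPKM, Mog at 0.393 ± 0.346 FPKM, and Olig2 at 0.339 ± 0.183 FPKM closed the order. From Mobp downward each gene overlapped with the next, so that only the first place of Mbp exceeded the spread between rats.

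The first question was how these mRNAs changed in brain EVs after stroke, from the control groups against the healthy group. The 3 time points share the 3 healthy libraries, and the later comparisons with 4 days share the control libraries of that day. At 4 days, 3 of the 9 genes were above the healthy range in every control library, namely the myelin genes Mobp and Mbp and the transcription factor Olig1. Mobp had 129, 240, and 113 CPM in the healthy libraries and 635, 398, and 327 CPM in the control libraries at 4 days. Olig1 had 49.6, 95.9, and 89.5 CPM in the healthy libraries and 171, 180, and 197 CPM at 4 days. Mbp had 2004, 1749, and 1769 CPM in the healthy libraries and 4584, 3307, and 2733 CPM at 4 days. The 2 groups did not overlap for any of these 3 genes, which among all genes tested was the case for 24.2%. In log2 the differences were 1.5 ± 0.47 (SE) for Mobp, 1.22 ± 0.35 for Olig1, and 0.94 ± 0.39 for Mbp. None of them passed the test, edgeR's quasi-likelihood test with Benjamini-Hochberg adjustment over all genes, with adjusted p = 0.123 for Mobp, 0.0918 for Olig1, and 0.248 for Mbp. A gene was called at an adjusted p under 0.05 with a change over 1.5-fold. By this rule 0 of the 9 genes and 0.861% of all 14515 genes tested were called, and 3 of the 9 had an unadjusted p under 0.05. DESeq2 called 2 of the 9, Mobp and Olig1, and 6.01% of all genes it tested. The other 6 genes overlapped between the groups, from −0.40 ± 1.26 for Mog to 0.64 ± 0.56 for Olig2. The share of counts on annotated genes was also higher in every control library at 4 days than in any healthy library. Its part in these differences was not tested.

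At 10 days, Mbp in the control libraries spread over a wide range, with 1886, 10114, and 2885 CPM. Mobp followed it with 190, 876, and 275 CPM, and the second of these libraries was the highest of all brain libraries for both genes. Against the healthy group, the log2 difference was 1.43 ± 0.40 for Mbp (edgeR adjusted p = 0.112) and 1.48 ± 0.47 for Mobp (adjusted p = 0.182). Cnp differed by 0.71 ± 0.32 (adjusted p = 0.341). None of the 9 genes was called, where edgeR called 0.572% of all genes, 3 of the 9 had an unadjusted p under 0.05, and DESeq2 called 2, Mbp and Mobp, beside 4.44% of all genes. The difference of Mbp rested on the second control library at 10 days, without which it was 0.39 (adjusted p = 0.901), and without the first library it was 1.85 (adjusted p = 0.00581). That of Mobp was 0.55 without the second library (adjusted p = 0.938) and 1.87 without the first (adjusted p = 0.0290), so that both genes were called when the first was left out. Olig2 was the only one of the 9 genes whose groups did not overlap, at 49.9, 40.1, and 77.8 CPM against 33.8, 38.5, and 32.9 CPM in the healthy libraries, with 14.1% of all genes not overlapping.

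At 31 days, Mbp and Mag were below every healthy library. Mbp had 862, 1046, and 920 CPM in the control libraries at 31 days, a mean of 943 CPM against 1841 CPM in the healthy group. Mag, the adhesion protein that faces the axon, had 184, 122, and 139 CPM in the healthy libraries and 57.0, 105, and 67.7 CPM at 31 days. The log2 difference was −0.97 ± 0.39 for Mbp (edgeR adjusted p = 0.571) and −0.95 ± 0.34 for Mag (adjusted p = 0.537). None of the 9 genes was called by edgeR or DESeq2, 2 had an unadjusted p under 0.05, and 25.3% of all genes did not overlap between these groups. Of all genes tested, edgeR called 0.00689% in this comparison, a single gene, Gfap. Mobp was back within the healthy range at 175, 182, and 152 CPM, and so was Olig1 at 85.9, 94.4, and 78.9 CPM.

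**Figure D1:**
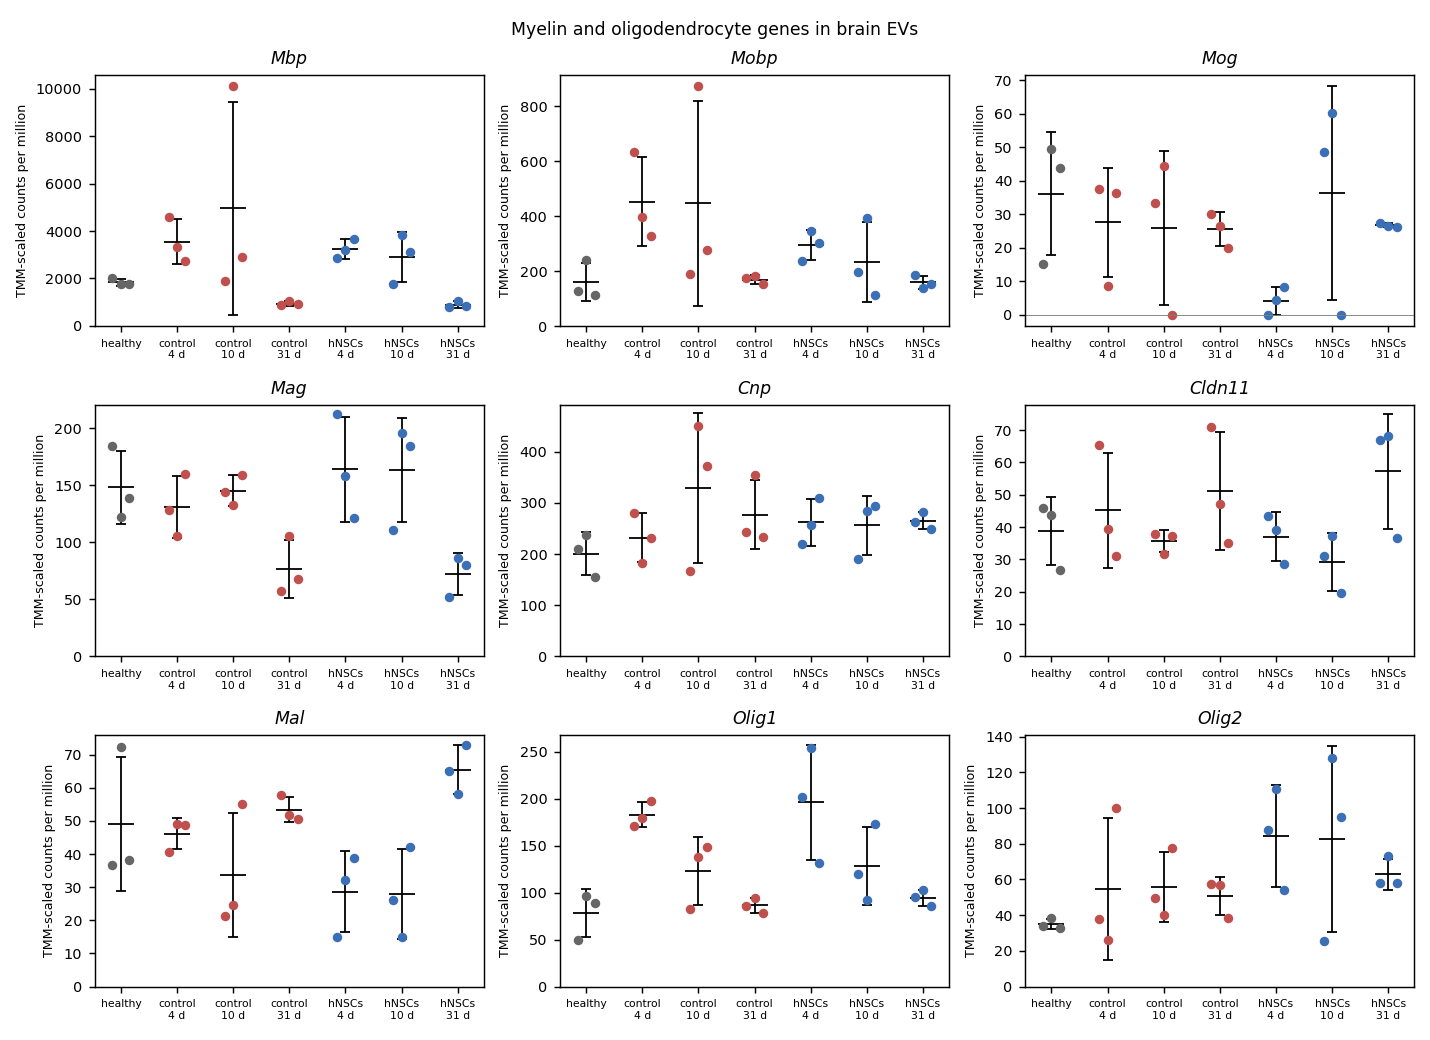
Level of each of the 9 genes in brain EVs in CPM (TMM-scaled), by group, with 1 dot per library and the mean ± SD of 3 rats. Mbp in the 6 libraries at 31 days lies between 783 and 1052 CPM, below all 15 others, whereas those of Cnp, Cldn11, Olig2, and Mog lie among the others.

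The remaining 5 genes spread as follows over the 21 brain libraries. Cnp, the phosphodiesterase, lay between 156 and 450 CPM, and its group means between 201 CPM in the healthy group and 330 CPM in the control group at 10 days. Cldn11 of the tight junctions lay between 19.6 and 71.1 CPM and Mal between 15 and 73.1 CPM. Olig2 lay between 25.6 and 128 CPM, and its healthy libraries, at 32.9 to 38.5 CPM, were near the lower end. Mog lay between 0 and 60.3 CPM and was at 0 in 3 libraries.

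Within the control groups, the levels at 31 days were set against those at 4 days. Mbp fell by 1.91 on the log2 scale (SE 0.40, 95% interval −2.74 to −1.07, edgeR adjusted p = 0.0435) and was the only one of the 9 genes called, where edgeR called 0.248% of all genes. Mobp changed by −1.42 ± 0.46, Olig1 by −1.08 ± 0.34, and Mag by −0.77 ± 0.34, and none of these passed the test (adjusted p = 0.276, 0.276, and 0.418). These 3 genes and Mbp were lower in every library at 31 days than in any library at 4 days, and Mal was higher in every one, with 29.2% of all genes not overlapping. The median log2 difference over the 9 genes was −0.11, beside 0.11 over all genes tested. Cnp at 0.26 ± 0.31, Cldn11 at 0.18 ± 0.54, Olig2 at −0.10 ± 0.55, and Mog at −0.11 ± 1.25 overlapped between the groups. The call of Mbp was lost without any 1 of the 6 libraries (log2 difference −2.06 to −1.68, adjusted p 0.0582 to 0.287) and with the RLE scaling of edgeR (adjusted p = 0.0540). Between 4 and 10 days, edgeR called 0 of the 9 genes and 0% of all genes, and 0 of the 9 had an unadjusted p under 0.05 or were called by DESeq2. Olig1 alone was lower in every library at 10 days, at 82.2, 138, and 149 CPM, and 7.93% of all genes did not overlap.

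The hNSCs groups gave a second set of rats with the same time points, compared among themselves after the control groups had been seen. Both sets were scaled together and fitted in 1 model. In both, every library at 31 days had a larger share of counts on annotated genes than any library at 4 days. The day therefore cannot be told apart from this difference between libraries in either set. The part of this difference in the changes between 4 and 31 days was not tested. Mbp had 2856, 3206, and 3661 CPM in the hNSCs libraries at 4 days and 783, 1052, and 844 CPM at 31 days. It fell by 1.86 on the log2 scale (SE 0.40, 95% interval −2.69 to −1.03, edgeR adjusted p = 0.0226), the only call among the 9 genes, where edgeR called 1.17% of all genes. This call was lost without hNSCs replicate 3 at 4 days or any 1 of the 3 replicates at 31 days (adjusted p up to 0.149). Mag had 212, 158, and 121 CPM at 4 days and 51.6, 85.8, and 80.1 CPM at 31 days, and Olig1 had 202, 255, and 132 CPM and then 95.5, 103, and 85.6 CPM. Their log2 differences were −1.17 ± 0.34 for Mag (adjusted p = 0.0967) and −1.05 ± 0.34 for Olig1 (adjusted p = 0.142). As in the control groups, every library at 31 days was below every library at 4 days for Mbp, Mag, Olig1, and Mobp. Mal went the other way, with 15, 32.1, and 38.8 CPM at 4 days and 65.1, 58.3, and 73.1 CPM at 31 days (1.19 ± 0.57, adjusted p = 0.285). Mog was also higher in every library at 31 days, at 27.4, 26.6, and 26.1 CPM after 0, 4.27, and 8.28 CPM, without passing the test (adjusted p = 0.336). In this comparison 35.3% of all genes did not overlap. Between 4 and 10 days, edgeR and DESeq2 called none of the 9 genes, edgeR called 0.0758% of all genes, and 1 of the 9, Mog, had an unadjusted p under 0.05. All 9 genes overlapped between these 2 groups, and 9.85% of all genes did not.

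The direction of Mbp and Mag at 31 days depended on the scale. The summed FPKM of all annotated genes was 4251 to 11922 in the healthy libraries, 13842 to 21531 in the control libraries at 4 days, and 22838 to 48951 at 31 days. With limma on log2(FPKM + 1), where the values are not scaled again between libraries, Mbp at 31 days differed by −0.81 from the control group at 4 days (adjusted p = 0.289) and by 1.09, upward, from the healthy group (adjusted p = 0.117). The median of all genes tested moved by 0.42 and 0.69 in these comparisons. Mag differed by 0.78 from the healthy group on this scale (limma, adjusted p = 0.0177), one of 8 of the 9 genes called higher, where 57.0% of all genes were called. With this pseudocount of 1, Mbp therefore lay 1.24 below the median gene against 4 days (a difference of −1.24) but 0.40 above it against the healthy group. In the hNSCs groups, Mbp differed by −0.01 between 31 and 4 days on the FPKM scale, beside a median of 0.66 (a difference of −0.66). The median gene depends on the pseudocount, and in this hNSCs comparison it moved by 1.71 with 0.1 in place of 1. The distances of Mbp from the median are therefore not a property of the FPKM scale as such.

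A measure that needs no scaling between libraries is the number of Mbp counts per Mal count within a library, chosen after the levels were seen and therefore not tested. The healthy libraries held 54.7, 24.1, and 46.2 Mbp counts for each Mal count. The ratio was 56.1 to 112 in the control libraries at 4 days and 94.3 to 190 in the hNSCs libraries. At 31 days it was 14.9, 20.2, and 18.2 in the control libraries and 12.0, 18, and 11.5 in the hNSCs libraries. All 6 libraries at 31 days were below the other 15. In CPM, Mal was higher in every library at 31 days than at 4 days in the control and the hNSCs groups. The ratio therefore combines a higher Mal with a lower Mbp and does not measure Mbp alone.

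**Figure D2:**
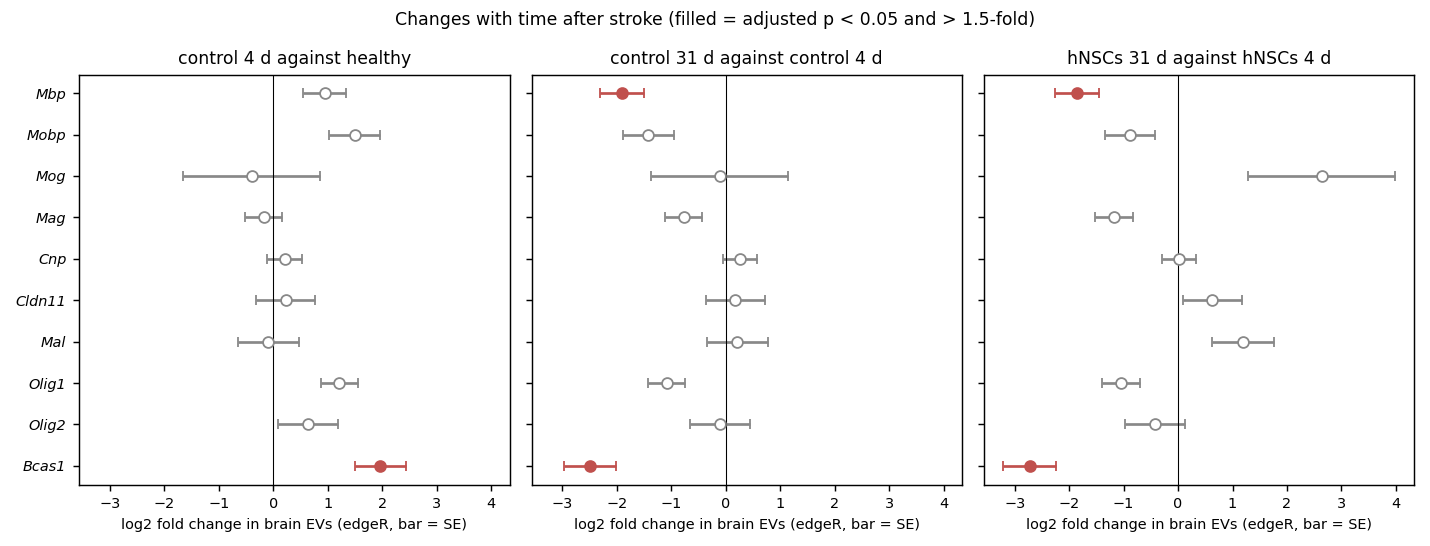
Log2 fold changes (edgeR, bars are SE) of the 9 genes and Bcas1 in brain EVs for 3 comparisons: control 4 days against healthy, control 31 days against control 4 days, and hNSCs 31 days against hNSCs 4 days. Filled points pass an adjusted p under 0.05 and a 1.5-fold change, which in the last 2 panels are Mbp and Bcas1 and in the first Bcas1 alone.

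The second question was whether hNSCs transplantation altered these mRNAs in brain EVs at the same day, against the saline control group. No difference passed the test on any day. At 4 days, 1 day after transplantation, Mbp differed by −0.13 (95% interval −0.93 to 0.68), Olig1 by 0.10 (−0.60 to 0.80), and Mag by 0.32 (−0.38 to 1.02). Mobp differed by −0.62 (−1.56 to 0.33). Mog and Mal were lower in every hNSCs library than in any control library at 4 days. Mog had 37.7, 8.64, and 36.4 CPM in the control libraries and 0, 4.27, and 8.28 CPM in the hNSCs libraries, a log2 difference of −2.68 (−5.47 to 0.11, edgeR adjusted p = 0.704). Mal had 40.8, 49.1, and 48.7 CPM in the control libraries, a difference of −0.68 (−1.85 to 0.48). Among all genes, 9.45% did not overlap between these groups. The share of counts on annotated genes was lower in every hNSCs library than in any control library at 4 days. In the hNSCs library with Mog at 0, 8828 annotated genes were counted, against 12631 to 13152 in the control libraries. The part of these differences between libraries was not tested.

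At 10 days, Mbp had 1764, 3835, and 3111 CPM in the hNSCs libraries, within the range of the 3 control libraries apart from 1764 CPM. The log2 difference was −0.77 (95% interval −1.59 to 0.04, edgeR adjusted p = 0.391), and that of Mobp was −0.93 (−1.88 to 0.03, adjusted p = 0.385), beside a median over all genes of −0.34. Both rested on the second control library at 10 days, without which Mbp differed by 0.27 (adjusted p = 0.890) and Mobp by 0.01 (adjusted p = 1.0, both by edgeR). All 9 genes overlapped between the groups, and 8.67% of all genes did not. The third hNSCs library at 10 days had 3.18% of its counts on annotated genes and 6190 such genes counted, the lowest of all brain libraries. At 31 days, the differences were −0.08 (−0.89 to 0.73) for Mbp, −0.09 (−1.03 to 0.86) for Mobp, −0.08 (−0.78 to 0.62) for Mag, and −0.06 (−0.71 to 0.58) for Cnp. Mal and Olig2 were higher in every hNSCs library at 31 days, by 0.29 (−0.86 to 1.45) and 0.31 (−0.83 to 1.44), with 5.96% of all genes not overlapping. On each of the 3 days edgeR called 0 of the 9 genes and 0% of all genes, 0 of the 9 had an unadjusted p under 0.05, and DESeq2 called 0 of them. The differences in the hNSCs effect between days were tested as interaction terms of the same model, and for each of the 3 pairs of days 0 of the 9 genes were called by edgeR or DESeq2 and 0 had an unadjusted p under 0.05. The interval of Mbp at 31 days leaves room for a change of 1.5-fold in either direction.

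Other genes of the lineage were taken from lists. Of 22 further genes of mature myelin, edgeR called none in any brain comparison between groups. Their median log2 difference was 0.35 at 4 days against healthy, beside 0.05 over all genes, and −0.34 at 31 days against 4 days, beside 0.11.

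Of 16 genes of oligodendrocyte progenitors and differentiation, 14 had a log2 difference above 0 at 4 days against healthy, with a median of 0.99, whereas 52% of all genes tested were above 0, with a median of 0.05. A single one of the 16 was called, where 0.861% of all genes were, namely Bcas1, a marker of oligodendrocytes that are starting to form myelin. It had 134, 146, and 167 CPM in the healthy libraries, 716, 405, and 629 CPM in the control libraries at 4 days, and 96.6, 137, and 79.0 CPM at 31 days. It rose by 1.97 ± 0.47 at 4 days against healthy (edgeR adjusted p = 0.0462). It fell by 2.48 on the log2 scale between 4 and 31 days (SE 0.48, adjusted p = 0.0285), and in the hNSCs groups by 2.72 (SE 0.48, adjusted p = 0.0045). Both calls in the control groups were lost without any 1 of the 6 libraries (adjusted p 0.0523 to 0.258). The call in the hNSCs groups was lost only without hNSCs replicate 3 at 31 days (adjusted p = 0.0585). Like Mbp, Bcas1 did not pass the test in the FPKM values between 31 and 4 days, with −1.18 in the control groups (adjusted p = 0.0547) and −0.72 in the hNSCs groups (adjusted p = 0.181). The list as a whole had a median of −0.57 between 31 and 4 days in the control groups, with 12 of 16 below 0, where 43.9% of all genes were below 0.

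Of 12 genes of myelin lipid synthesis, 11 were tested and none was called. Their median was −0.53 at 4 days and −0.49 at 31 days against healthy, with 8 and 9 of 11 below 0, where 47% and 36.9% of all genes were. Of 6 Schwann cell genes, 3 were tested and none was called, and their summed level stayed at 0 to 50.5 CPM in brain EVs.

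Markers of other brain cells moved in the same comparisons. The summed level of 7 microglia markers was 61.1 to 86.2 CPM in the healthy libraries, 350 to 717 CPM in the control libraries at 4 days, and 188 to 338 CPM at 31 days. That of 6 astrocyte markers was 1203 to 1345 CPM in the healthy libraries, 3357 to 3581 CPM at 4 days, and 3858 to 5006 CPM at 31 days. That of 6 neuron markers was 3664 to 4544 CPM, then 1579 to 2829 CPM and 2861 to 4023 CPM. None of the markers of these 3 lists was at 0 in all brain libraries. The summed level of the 9 genes was 2408 to 2708 CPM in the healthy libraries, 3865 to 5980 CPM at 4 days, and 1596 to 1965 CPM at 31 days in the control groups. The part of the other cells in these differences was not tested. Of 5 T cell markers, which bear on Mal, Cd3e, Cd3d, and Cd2 were at 0 in all brain libraries and the summed level was at most 6.51 CPM. The 5 vascular markers summed to 55.8 to 274 CPM, the 5 choroid plexus markers to 31.6 to 503 CPM, the 5 platelet markers to 0 to 57.4 CPM, and the 5 liver markers to 0 to 49.3 CPM. The 5 red cell markers also differed between the days. Their summed level was 84.5 to 186 CPM in the control libraries at 4 days and 404 to 489 CPM at 31 days, and 89.3 to 113 CPM and then 376 to 465 CPM in the hNSCs libraries. At 10 days it was 339 to 1165 CPM in the control and 861 to 1347 CPM in the hNSCs libraries. Of these markers the hemoglobin gene Hba2 led, and it rose by 2.07 in log2 between 4 and 31 days in the hNSCs groups (edgeR adjusted p = 0.0045). In the control groups Hba2 differed by 1.36 (edgeR adjusted p = 0.145) and was not called. The hemoglobin genes Hba1 and Hbb were not called in the control or the hNSCs groups. The part of red cells in the fall of Mbp and Bcas1 was not tested.

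MiRNAs of the lineage were examined in the same brain EVs. MiR-219 and miR-338 are enriched in oligodendrocytes and promote their differentiation from progenitors by repressing mRNAs that hold progenitors back. Of 8 listed miRNAs, 7 were in the table and 4 had enough counts for a test. Their mature sequences are shown because the 2 arms of a single hairpin, miR-219a-5p and miR-219a-2-3p, moved in opposite directions at 4 days. Sequences are from RefSeq, 5′ to 3′, and capitals mark the seed, bases 2 to 8, which pairs with targets.
rno-miR-219a-5p: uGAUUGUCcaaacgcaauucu
rno-miR-219a-2-3p: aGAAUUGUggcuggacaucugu
rno-miR-338-3p: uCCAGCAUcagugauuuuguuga
rno-miR-138-5p: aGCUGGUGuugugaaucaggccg
No seed is shared among these 4 sequences.

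MiR-219a-5p had 910, 537, and 946 CPM (UMI counts, TMM-scaled) in the healthy libraries and 2607, 1521, and 2314 CPM in the control libraries at 4 days. The groups did not overlap, and it rose by 1.43 ± 0.30 (edgeR adjusted p = 0.00511), where 14.6% of the 350 miRNAs tested were called. At 10 days it was at 1596, 1428, and 1330 CPM, a rise of 0.87 ± 0.29 against healthy (adjusted p = 0.0392, with 19.4% of miRNAs called), which was lost when any 1 of the 6 libraries other than healthy replicate 3 was left out. At 31 days it was at 889, 1399, and 882 CPM, 0.41 ± 0.29 from healthy (adjusted p = 0.324), a comparison in which 25.1% of miRNAs were called. Between 4 and 31 days it fell by 1.02 on the log2 scale in the control groups (SE 0.29, adjusted p = 0.0104, with 28.9% of miRNAs called). In the hNSCs groups it fell by 1.44 (SE 0.29, adjusted p = 0.00104, with 20.3% of miRNAs called), from 3658, 1399, and 2107 CPM to 793, 885, and 973 CPM. The fall in the control groups was not called without control replicate 1 at 31 days (adjusted p = 0.0643).

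MiR-338-3p had 3291, 2226, and 3968 CPM in the healthy libraries and 5179, 4369, and 5644 CPM in the control libraries at 4 days, 0.68 ± 0.24 above (edgeR adjusted p = 0.0536). It fell by 0.70 to 31 days in the control groups (SE 0.24, adjusted p = 0.0319) and by 0.94 in the hNSCs groups (SE 0.24, adjusted p = 0.00622). The call in the control groups was lost without control replicate 3 at 4 days and without control replicate 1 or 2 at 31 days. MiR-219a-2-3p moved less and in the opposite direction at 4 days, from 3147, 4147, and 3330 CPM in the healthy libraries to 2769, 2179, and 2455 CPM. Its difference of −0.52 ± 0.16 (adjusted p = 0.0286) stayed under 1.5-fold and was not called. MiR-138-5p differed by −0.24 ± 0.28 at 4 days against healthy (adjusted p = 0.598). The other 3 had at most 14 UMIs in a brain library.

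Within a library, the number of miR-219a-5p UMIs per miR-219a-2-3p UMI was 0.130 to 0.289 in the healthy group, 0.698 to 0.943 in the control group at 4 days, 0.504 to 0.610 at 10 days, and 0.334 to 0.515 at 31 days. In the hNSCs groups it was 0.654 to 1.57 at 4 days, 0.774 to 1.00 at 10 days, and 0.299 to 0.388 at 31 days. MiR-219a-5p has the same sequence when it is cut from a second hairpin, whose other arm, miR-219a-1-3p, had at most 3 UMIs in a brain library. Between hNSCs and control, no listed miRNA was called, where edgeR called 0.286% of miRNAs at 4 days and 0% at 10 and 31 days, and DESeq2 called 0 of the 4 on each day. Only miR-219a-5p at 10 days had an unadjusted p under 0.05, when the hNSCs libraries had 2482, 1992, and 2246 CPM and lay above the 3 control libraries (0.63 ± 0.29, edgeR adjusted p = 0.602).

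**Figure D3:**
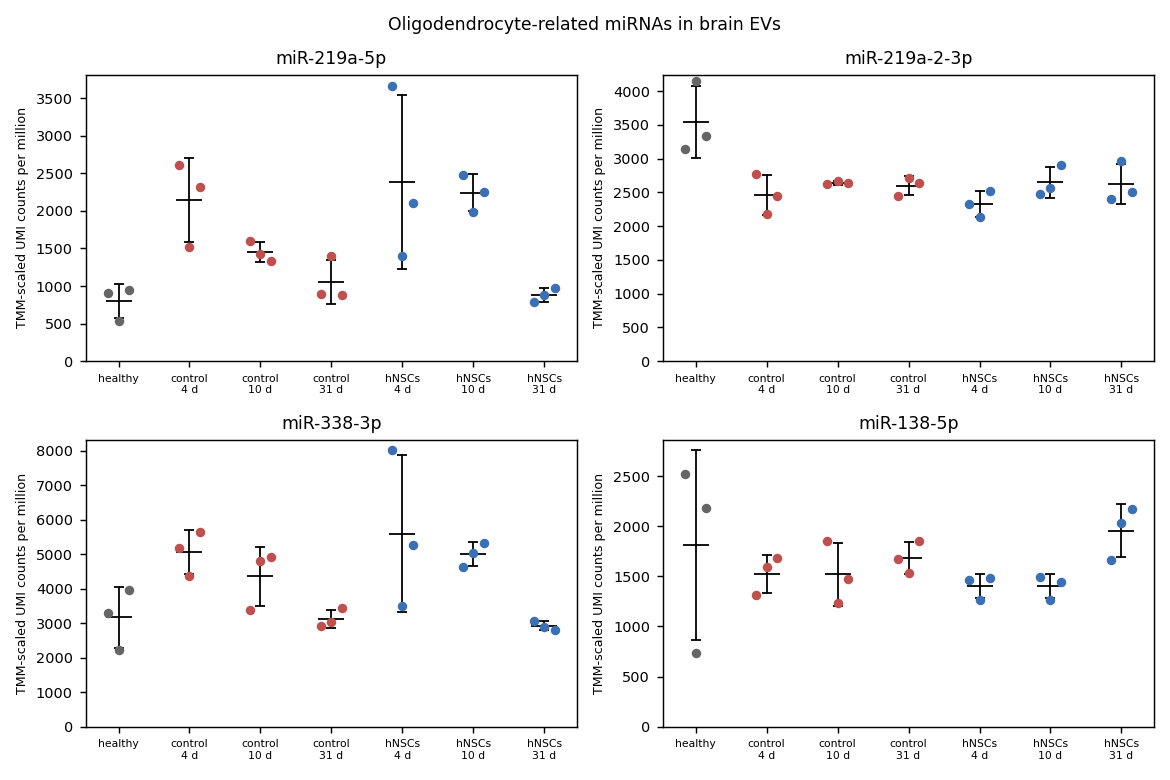
Levels of 4 miRNAs in brain EVs in CPM (UMI counts, TMM-scaled), by group, with 1 dot per library and the mean ± SD of 3 rats. MiR-219a-5p lies above the healthy libraries, at 537 to 946 CPM, in every library at 4 and 10 days, and miR-219a-2-3p in the control group at 4 days, at 2179 to 2769 CPM, lies below its 3 healthy libraries.

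**Figure D4:**
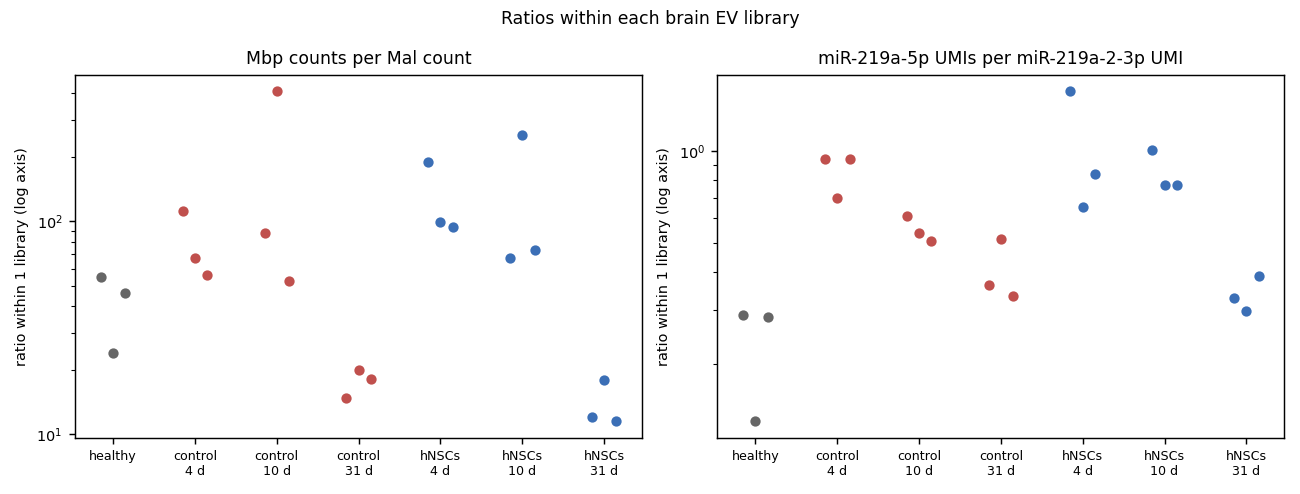
Mbp counts per Mal count and miR-219a-5p UMIs per miR-219a-2-3p UMI within each brain EV library, by group, with 1 dot per library on a log axis. All 6 libraries at 31 days lie below the other 15 for Mbp per Mal, at 11.5 to 20.2, and the 3 healthy libraries lie lowest for the miRNA ratio, at 0.130 to 0.289.

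In plasma EVs most of the 9 mRNAs were at or near 0, although plasma libraries were as deep, with 11878400 to 49824800 counts and 45.1% to 75.6% of them on annotated genes. Mog and Olig2 had 0 counts in all 21 plasma libraries, Mobp had 2 counts in 1 healthy library, and Olig1 had 1 count in 1 control library. Mag had 2 and 47 counts in 2 hNSCs libraries at 4 days and 0 in the others. Cldn11 was counted in 6 libraries, at 9 to 238 counts. Mbp was counted in 20 libraries, and Cnp and Mal in all 21. Summed over all plasma libraries, Cnp had 109 counts per 1000000 annotated counts, Mal had 108, and Mbp had 32.4.

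The change with stroke was tested in plasma for the 4 genes with enough counts, Mbp, Cnp, Mal, and Cldn11. Mbp had 32.5, 202, and 35.8 CPM in the healthy plasma libraries. It had 6.21, 26.9, and 22.3 CPM in the control libraries at 4 days and 28.0, 1.40, and 11.6 CPM at 10 days, all below the healthy range. The log2 difference was −2.28 ± 1.39 at 4 days (edgeR adjusted p = 0.762) and −2.72 ± 1.42 at 10 days (adjusted p = 0.750). Without the second healthy library, at 202 CPM, the differences were −0.88 and −1.32. Cnp had 180, 86.5, and 179 CPM in the healthy libraries and 60.8, 37.5, and 88.3 CPM at 4 days (−1.25 ± 0.49, adjusted p = 0.742). None of the 4 genes was called by edgeR or DESeq2 in any comparison between groups in plasma. Of all 14720 genes, edgeR called 0.0679% at 4 days and 0% at 10 and 31 days against healthy, and 0.387% at 10 days and 0.17% at 31 days against 4 days. An unadjusted p under 0.05 was seen for 1 of the 4 genes at 4 days against healthy and for 1 at 10 days against 4 days, Cnp in both. The groups did not overlap for Mbp in 2 of these comparisons, where 12.5% and 12.2% of all genes did not, and for Cnp between 4 and 10 days, where 10.8% did not.

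Between hNSCs and control, plasma Mbp differed by 1.04 (95% interval −1.77 to 3.85) at 4 days, 1.40 (−1.43 to 4.23) at 10 days, and 0.61 (−2.18 to 3.39) at 31 days. Cnp differed by 0.24 (−0.76 to 1.24), −0.40 (−1.40 to 0.60), and 0.14 (−0.85 to 1.14), and Mal by −0.65 (−2.28 to 0.98), −0.22 (−1.85 to 1.40), and 0.72 (−0.91 to 2.35). For none of the 4 genes was the unadjusted p under 0.05, and edgeR called 0.00679% of all genes at 4 days and 0% at 10 and 31 days. The interaction terms between days gave 0 calls among the 4 genes by edgeR or DESeq2, with 1 unadjusted p under 0.05, between 31 and 4 days. The intervals of Mbp span several-fold changes in both directions, so that a change of that size was not detectable in plasma with 3 rats per group.

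**Figure D5:**
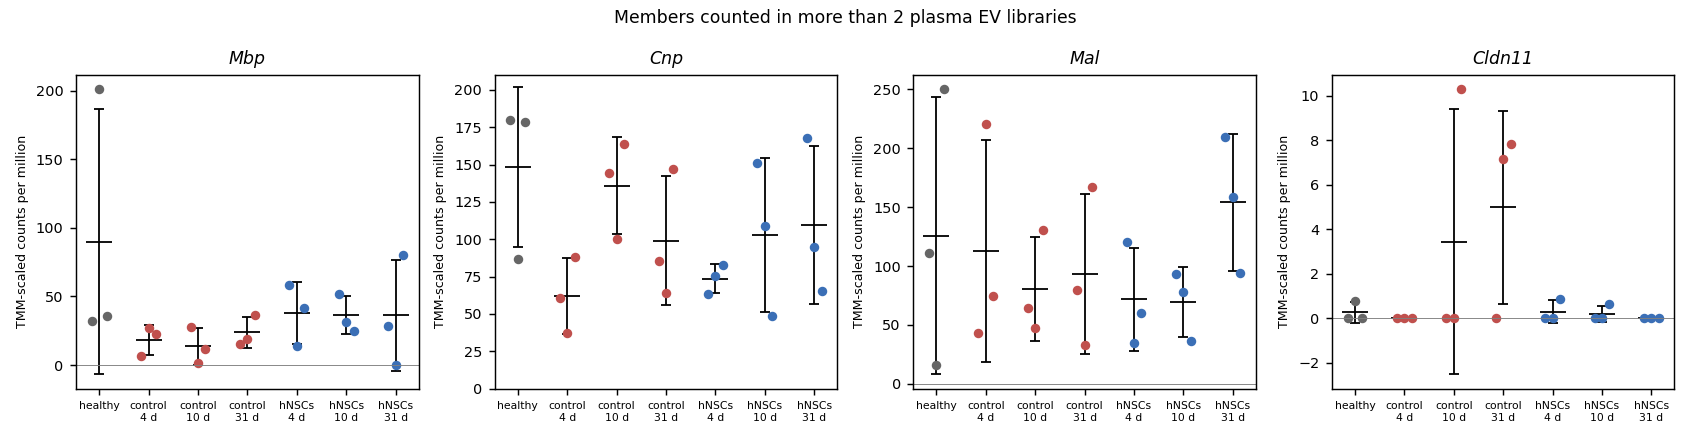
Levels of Mbp, Cnp, Mal, and Cldn11 in plasma EVs in CPM (TMM-scaled), by group, with 1 dot per library and the mean ± SD of 3 rats. The healthy group spans 32.5 to 202 CPM for Mbp, and Cldn11 is at 0 in 15 of the 21 libraries.

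The 2 kinds of EVs were compared in the same rats, with the rat as a block. All 9 genes were called, 8 higher in brain and Mal lower, where edgeR called 58.1% of the 13470 genes tested. Mog, Olig2, Olig1, Mobp, Mag, and Cldn11 were counted in at most 6 plasma libraries and passed the count filter through their brain counts. For these genes a higher level in brain was fixed by the filter, and their calls are no separate support. Mbp was higher in brain by 5.92 ± 0.59 in log2 (adjusted p = 3.36e-09). Mal was lower in brain by −1.53 ± 0.29 in log2 (adjusted p = 8.24e-05). Cnp was higher by 0.93 ± 0.19 (adjusted p = 0.000187), but this direction did not hold in FPKM (−1.04 with a pseudocount of 1) or in the 3 healthy rats alone (−0.09). Pooled over the 21 libraries, the level in counts per 1000000 annotated counts was 56.6-fold higher in brain for Mbp (95% interval 55.7 to 57.6) and 35.9-fold higher for Cldn11 (33.0 to 39.0). It was 910-fold higher for Mag (688 to 1231). For Mog and Olig2, at 0 in plasma, brain was at least 4206-fold and at least 8753-fold higher against a floor of 3 counts over all plasma libraries. Mobp, with 2 plasma counts, gave a ratio of 54196 (15001 to 447537), and Olig1, with 1, gave 51778 (9291 to 2045300). The intervals are exact binomial intervals on pooled counts, and the floor of 3 counts is a chosen value. Both treat every read as independent, although the mRNA reads carried no UMIs, and leave out the spread between rats. Mag was counted in only 2 plasma libraries.

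Blood cell markers stood beside these values in plasma EVs. The summed level of 5 red cell markers was 5415 to 310736 CPM, that of 5 platelet markers 667 to 20236 CPM, that of 5 T cell markers 10.3 to 416 CPM, and that of 7 microglia markers, which blood monocytes share in part, 123 to 415 CPM. The summed level of 6 neuron markers was 0 to 19.0 CPM and that of 6 astrocyte markers 1.70 to 93.0 CPM. The 5 liver markers summed to 99.2 to 27535 CPM, the 5 vascular markers to 87.6 to 352 CPM, the 5 choroid plexus markers to 7.73 to 2825 CPM, and the 6 Schwann cell markers to 8.48 to 64.3 CPM. Of the lineage lists, Opalin, Ugt8, Nkx2-2, Nkx6-2, and Zfp488 were at 0 in all plasma libraries. The part of blood cells in the plasma levels of Mbp, Cnp, and Mal was not tested. Among the miRNAs, miR-219a-2-3p had 0 UMIs in 20 of the 21 plasma libraries and 2 UMIs in the other, while miR-219a-5p had 2 to 30 UMIs, miR-338-3p 8 to 58, and miR-138-5p 9 to 130.

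Whether plasma levels followed brain levels from rat to rat was tested for the 3 genes with a mean of at least 1 FPKM in both, over 21 rats and in log2(FPKM + 1). For Mbp, Pearson's r was −0.50 (permutation p = 0.0195, adjusted over 3369 genes p = 0.868) and Spearman's rho −0.37 (permutation p = 0.0982). Without the 2 rats farthest from the median brain level, r was −0.24, and with each group centered on its mean it was −0.32. For Mal, r was 0.22 (permutation p = 0.339, adjusted p = 0.919) and rho 0.22 (permutation p = 0.330), and r was 0.065 without 2 rats and −0.37 with the groups centered (permutation p = 0.104). For Cnp, r was 0.027 (permutation p = 0.909, adjusted p = 0.998) and rho 0.047 (permutation p = 0.842), and r was −0.050 without 2 rats and −0.059 with the groups centered. No gene passed the adjustment, 0 of 3 and 0 of 3369. These FPKM values were not scaled between libraries, and their sum over annotated genes ran from 2190 to 48951 in brain. The part of this spread in the correlations was not tested, and TMM-scaled levels were not correlated.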

How the data were processed

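Groups and the animal number, which ties the brain EVs of a rat to its plasma EVs, were taken from the labels, which write plasma in most fields and serum in 1. For mRNA, the authors trimmed the reads, used Bowtie2 for alignment to the Rnor_6.0 build, and had StringTie assemble the transcripts. The deposited counts are whole reads per gene without normalization, and the deposited FPKM values are per length and library. The strand setting, the read assignment, and tool versions are not given in the sources used here. For miRNA, the authors deposited UMI counts, in which copies of a molecule count once, and TPM values, in which a UMI count is divided by the library total. Brain miRNA libraries held 321776 to 1711169 UMIs and plasma libraries 429365 to 1899541. The mRNA reads carried no UMIs, so that amplification can add to the spread between libraries.

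Annotated genes were fitted with edgeR 4.0.16 in R 4.3.3 (TMM, filterByExpr, quasi-likelihood), with the 7 groups in 1 model per tissue and RNA type, and the interaction terms from the same model. P values were adjusted by Benjamini-Hochberg over all genes tested. The 95% intervals take the standard error times the t quantile at the degrees of freedom of the test. Before the fits, changes were put into simulated counts for control 31 days against 4 days. Of changes of 2-, 4-, and 16-fold, the test recovered 1.61%, 18.6%, and 36.8% in brain mRNA. It recovered 0%, 1.82%, and 29.2% in plasma mRNA, and 60%, 97.6%, and 100% in brain miRNA. The changed features were drawn at random from all that passed the filter, so these shares are not those of the 9 genes. An mRNA that was not called may still have changed several-fold where its 95% interval is wide or not given. Replicates are separate rats. Brain and plasma EVs were compared with the rat as a block, and their correlation with 100000 permutations. Alternatives were DESeq2 1.42.0, RLE scaling, limma 3.58.1 on log2(FPKM + 1) or log2(TPM + 1) or with a pseudocount of 0.1, no filter, a replicate block, a fit of only the 2 groups in question, and each library left out in turn. The named genes are the 9 genes, called genes of the other oligodendrocyte lists, listed miRNAs, the 10 genes with the most similar profile, and leading markers. The genes, lists, and tests were chosen with earlier results of these data known, and the comparisons among the hNSCs groups and the ratios within a library were added after the levels were seen. No gene coordinates are given, since the annotation at hand (GRCr8) is of another build than the files. Human RNA of the hNSCs was not analysed here. Some results of the mature myelin list are not reported here.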

Additional observations from a re-analysis of the deposited data

How the results depend on the processing

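The share of all genes or miRNAs called under the same setting stands in parentheses. Among the 9 genes in brain, the control group at 4 days against healthy (0 called) gave 2 with DESeq2 (6.01%), 2 with limma and either pseudocount (1.75% and 3.38%), 3 with only the 2 groups compared (4.3%), and 0 to 0 without a replicate. At 10 days against healthy (0 called), DESeq2 gave 2 (4.44%), and leaving out a replicate 0 to 2. At 31 days against healthy (0 called), limma gave 8 with a pseudocount of 1 (57.0%) and 7 with 0.1 (80.9%), all higher, with Mag reversed to 0.78 and 1.16 and Mog to 0.67, on a scale where the median gene moved by 0.69 and 1.74. At 31 against 4 days in the control groups (1 called, Mbp), DESeq2 gave 2 (1.7%), RLE scaling 0 (0.262%), limma 3, namely Cldn11, Cnp, and Mal, higher (28.1%), and 0 (18.1%), only the 2 groups 3 (6.34%), and leaving out a replicate 0 to 0. In the hNSCs groups (1 called, Mbp), DESeq2 gave 3 (6.47%), limma 5 and 5 (53.0% and 71.7%), with Olig2 reversed to 0.88 and 1.39, only the 2 groups 2 (9.57%), and leaving out a replicate 0 to 1. Among the 4 miRNAs, 4 days against healthy (1 called) gave 3 with DESeq2 (23.6%), 2 with RLE scaling (18.9%), 2 with limma and either pseudocount (24.6% and 24.3%), 2 without the filter (9.02%), 2 with the replicate block (17.4%), and 1 to 2 without a replicate. At 10 days against healthy (1 called), only the 2 groups gave 0 (3.43%) and leaving out a replicate 0 to 1. At 31 days against healthy (0 called), no filter gave 1, miR-219a-2-3p (14.8%), and at 31 against 4 days (2 called), leaving out a replicate gave 0 to 2. Between brain and plasma (9 called), the 3 healthy rats alone gave 4 (17.0%), and Cnp reversed to −1.04 and −1.23 with limma and to −0.0906 in the healthy rats. The cause of these changes was not tested. The remaining 384 of the alternative counts stayed within 1.5 times the main count.

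Same-numbered libraries of different groups deviated together (r over 0.1) in 7 of 63 pairs in brain mRNA, 22 of 63 in brain miRNA, and 3 of 63 in plasma mRNA. Their median r was −0.0009, 0.012, and −0.012, beside 0.0035, −0.012, and 0.0087 for libraries of different number. In brain miRNA r reached 0.52 in a same-numbered pair. The share of differently numbered pairs over 0.1 was not counted. With the replicate block, Mbp at 31 against 4 days in the control groups was −1.95 (adjusted p = 0.0302). In brain, Mog was at 0 in 3 of 21 libraries, and in plasma Cldn11 was at 0 in 15.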

Other observations

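The 9 genes did not form a single profile over the 21 brain libraries. Of their 36 pairs, 21 had a positive Pearson correlation of log2 levels, with a median of 0.076, and all libraries share the scaling. Mbp and Mobp, both of compact myelin, had the highest value (r = 0.76, Spearman's rho 0.68). Mbp with Mag was close to it (r = 0.69, rho 0.64), and Mbp with Olig1 had r = 0.56. The lowest value was that of Mag and Mal (−0.63), and Mbp and Mal had −0.55. Olig1 and Olig2, which are adjacent in RefSeq with 0 genes between them, had 0.37. These correlations describe the libraries and were not tested.

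The genes whose profile was most like the mean standardized profile of the 9 were, of 14506 others, P4hb (r = 0.87), Apoe (0.86), Ctsd (0.85), Sparc (0.85), Rest (0.84), LOC100911319 (0.83), Tsc22d4 (0.83), Col1a1 (0.82), Gnai2 (0.82), and Fam129b (0.82), beside a median of −0.045 over all of them. P4hb encodes protein disulfide isomerase, Apoe a lipid carrier that astrocytes and microglia secrete, Ctsd a lysosomal protease, and Sparc and Col1a1 matrix proteins. None of the 10 is on the oligodendrocyte lists.

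A few other genes of the lists, chosen after their values were seen, did not pass the test. Apod, a lipid carrier of oligodendrocytes among other cells, differed by 2.72 ± 0.68 between the control group at 4 days and healthy (edgeR adjusted p = 0.0547). Between 31 and 4 days Apod differed by −0.73 ± 0.63. Sox10, a transcription factor of the lineage, differed by 0.92 in the same comparison (adjusted p = 0.214) and by −0.97 between 31 and 4 days (adjusted p = 0.286). Gpr17, a receptor of differentiating progenitors, differed by 1.47 between 4 days and healthy (adjusted p = 0.562) and by −2.74 between 31 and 4 days (adjusted p = 0.279).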
